A study of Mus musculus with 4 samples.

Results

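The genes described here number 8. They are the transcription factor genes Mlxipl, Mlxip and Mlx of glucose sensing, and the arrestin-domain genes Txnip, Arrdc1, Arrdc2, Arrdc3 and Arrdc4. They were chosen by gene symbol, from a proposal written with the fold changes between these arrays known, so their fold changes are given below as a description and carry no p-values. All 8 were on the array, with 13 probe sets annotated to exactly 1 of these symbols, out of 17097 genes and 28898 such probe sets in all. The samples were mouse brown adipocytes differentiated for 6 days, in which a short hairpin RNA (shRNA) against Blnc1, a long noncoding RNA of brown fat, was compared with a scrambled shRNA. There were 2 arrays of shBlnc1 cells and 2 of scramble cells, labelled as biological replicates; nothing says whether they came from separate cultures, so tests below measure only the spread between these arrays. Both groups carried an shRNA, and neither the number of hairpins against Blnc1 nor the origin of the cells is given in the sources used here. The level of Blnc1 itself was not analysed here.

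Glucose that enters a cell is phosphorylated to glucose 6-phosphate, which activates a pair of related transcription factors, ChREBP (encoded by Mlxipl) and MondoA (encoded by Mlxip). Both bind DNA as dimers with MLX (encoded by Mlx), at paired E-boxes called carbohydrate response elements, and in fat ChREBP drives genes of fatty acid synthesis. Txnip and Arrdc4 are known targets of these factors, and their products are alpha-arrestins, adaptor proteins that limit glucose uptake by the cell. The related alpha-arrestins ARRDC1, ARRDC2 and ARRDC3 bring ubiquitin ligases of the NEDD4 family to membrane proteins.

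The promoter sequences of Txnip, Arrdc4 and the upstream start of Mlxipl are shown because these genes are known targets of the MLX dimers. They come from RefSeq (GRCm38.p6), cover the 250 bases before the annotated start of transcription, and lie on chr3:96557707-96557956 (plus strand), chr7:68749239-68749488 (minus strand) and chr5:135089640-135089889 (plus strand). Capitals mark E-boxes (CACGTG) and the paired 6-base sites of a carbohydrate response element, searched as CACGTG and CACGTG held 5 bases apart with at most 1 mismatch in each site. Both motifs read the same on either strand, and an exact pair would also count as E-boxes.
Txnip: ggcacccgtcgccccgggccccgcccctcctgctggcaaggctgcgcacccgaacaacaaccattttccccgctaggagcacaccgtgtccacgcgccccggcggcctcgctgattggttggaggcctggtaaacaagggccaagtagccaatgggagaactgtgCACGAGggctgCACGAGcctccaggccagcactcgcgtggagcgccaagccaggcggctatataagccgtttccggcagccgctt
Arrdc4: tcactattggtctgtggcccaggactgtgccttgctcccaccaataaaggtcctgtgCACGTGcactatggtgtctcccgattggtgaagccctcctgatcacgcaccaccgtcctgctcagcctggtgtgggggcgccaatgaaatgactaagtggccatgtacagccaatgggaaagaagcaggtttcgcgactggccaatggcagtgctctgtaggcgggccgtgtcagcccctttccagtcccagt
Mlxipl: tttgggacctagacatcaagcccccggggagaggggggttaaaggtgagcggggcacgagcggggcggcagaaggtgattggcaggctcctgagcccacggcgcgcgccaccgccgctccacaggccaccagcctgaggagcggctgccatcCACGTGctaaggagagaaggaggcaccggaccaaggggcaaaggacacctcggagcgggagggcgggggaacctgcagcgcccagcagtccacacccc

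The Txnip window held 1 such element, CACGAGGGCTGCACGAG, which starts 85 bases before the start site. Across all 32851 mouse promoter windows of 300 bases in the same table, 0.414% held a match to this element. No other window of the 8 genes, among 11 in all, held one. The Arrdc4 window held a single E-box, 193 bases before the start site, and 6 CCAAT boxes (CCAAT or its reverse complement ATTGG), a count that 0.0791% of all windows reached; this count was singled out after it was seen. The upstream start of Mlxipl and the start of Mlx each held 1 E-box, against 7.15% of all windows with at least 1. Among 20 windows of known ChREBP target genes listed below, 1 held the paired element (Pklr). These matches describe letters within short windows and say nothing of binding in these cells.

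Expression is given as the deposited log2 value of a probe set, on which 1 unit is a doubling of signal. The background is a log2 value of 2.55, the top reading among the antigenomic control probe sets whose probes hold 3 to 24 G or C bases, over all 4 arrays. All 13 probe sets were above it on all 4 arrays. The cells carry the label of brown adipocytes. All 5 measured markers of fat cells in general, among them Adipoq and Fabp4, were above background on every array, with a summed log2 signal of 13.87 to 13.89 in shBlnc1 cells and 13.80 to 13.82 in scramble cells. Brown fat markers were above background on every array for 5 of 6, and their summed log2 signal was 10.14 to 10.24 in shBlnc1 cells and 10.98 to 11.08 in scramble cells. By limma, 5 of these 6 were lower in shBlnc1 cells, with Ucp1 3.64-fold and Cidea 4.02-fold lower, and 1, Elovl3, was higher (log2 fold change 1.07).

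Other measures moved with the groups. Of 7 measured hepatocyte markers, 5 were lower in shBlnc1 cells by limma, the sum was 7.52 to 7.73 in shBlnc1 cells and 7.98 to 8.45 in scramble cells, and Alb read 4.43 and 2.50 in shBlnc1 cells and 6.28 and 5.70 in scramble cells. All 3 measured preadipocyte markers were higher (sums of 6.11 to 6.26 in shBlnc1 cells and 5.37 to 5.54 in scramble cells). In scramble cells, Cd34 was below background at 2.08 and 2.20, and Pdgfra was near it at 2.90 and 2.72. The third, Dlk1, read 5.53 and 5.68 in shBlnc1 cells and 4.89 and 5.15 in scramble cells. Macrophage sums were 5.67 to 5.77 in shBlnc1 cells and 5.51 to 5.56 in scramble cells, with 1 of 5 markers at background on every array, and 1 of 5 (Adgre1) was higher. The 3' to 5' log2 ratio of Actb, which rises where RNA is broken, was 1.77 and 1.88 in shBlnc1 cells against 0.99 and 1.15 in scramble cells. That of Gapdh was 0.34 and 0.40 in shBlnc1 cells against 0.09 and 0.04 in scramble cells, and 18S ribosomal RNA, on its middle control probe set, read 6.64 and 7.01 in shBlnc1 cells against 5.13 and 4.43 in scramble cells. The part of these measures in the results below was not tested. In such bulk samples, fewer cells of a type and less RNA per cell cannot be told apart.

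The arrestin-domain targets Arrdc4 and Txnip went opposite ways: Arrdc4 was 4.54-fold higher and Txnip 1.54-fold lower in shBlnc1 cells than in scramble cells. For each gene this is the probe set with the highest mean over all 4 arrays. That of Arrdc4 was only 0.12 above background on the lower scramble array. A second Arrdc4 probe set was only 1.21-fold higher, with groups 0.04 apart, and a second Txnip probe set was 1.78-fold lower. The 3 transcription factor genes differed little, with log2 fold changes of 0.15 to 0.25. Arrdc1 and Arrdc3 were lower by 1.40-fold and 1.31-fold, and Arrdc2 had a log2 fold change of 0.03. The other Arrdc1 probe sets were lower by only 1.10-fold and 1.06-fold. By mean, 5 of the 8 genes were higher and 3 lower in shBlnc1 cells. Group values did not overlap for 6 of the 8 genes, beside 62.6% of all genes, a share from which nothing is read.

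**Figure D1:**
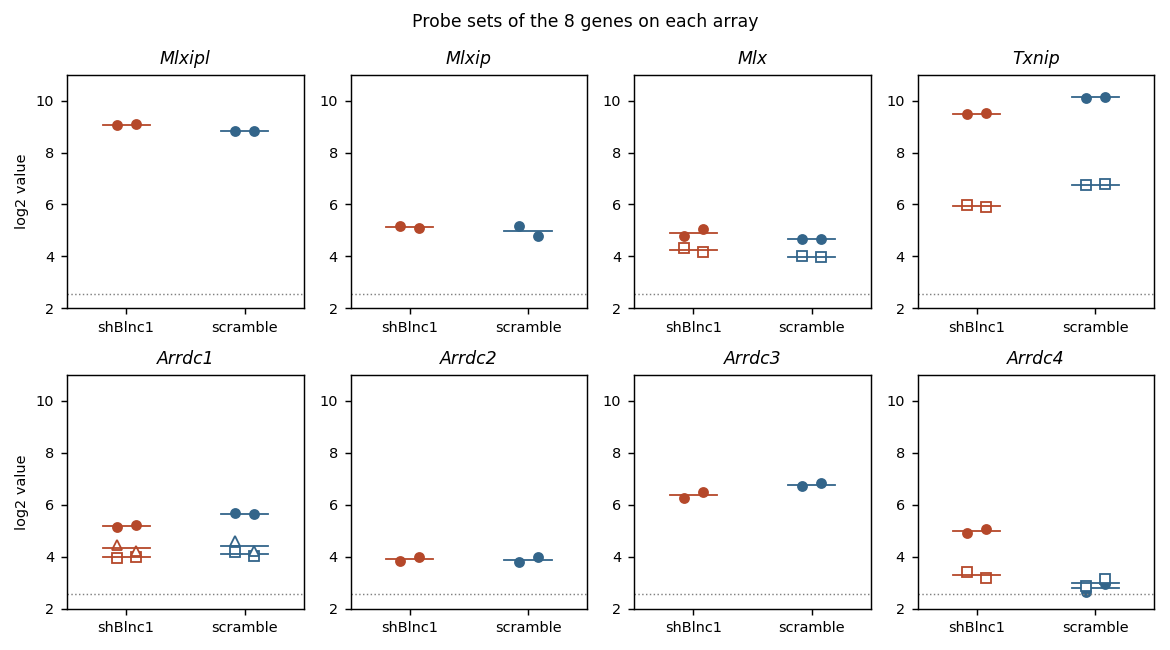
Log2 value of each probe set of the 8 genes on each array (y axis), for shBlnc1 cells and scramble cells (x axis, 2 arrays each, replicate 1 on the left). Filled circles are the probe set that stands for the gene, open symbols its other probe sets, short lines group means, and the dotted line the background of 2.55; Arrdc4 (filled) rises clear of the background in shBlnc1 cells while both Txnip probe sets are lower there.

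Mlxipl encodes ChREBP, the glucose-responsive factor known best from liver and fat (Entrez Gene 58805). Its 1 probe set read 9.05 and 9.09 in shBlnc1 cells, against 8.83 and 8.81 in scramble cells. The groups did not overlap, but their gap of 0.22 was small: the log2 fold change was 0.25 (SE 0.10), or 1.19-fold. RefSeq lists 2 starts for Mlxipl, and the place of the probe set on the transcript was not analysed here, so the alpha and beta forms of ChREBP made from these starts cannot be told apart.

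Mlxip encodes MondoA, the related factor known best from skeletal muscle (Entrez Gene 208104). It read 5.17 and 5.10 in shBlnc1 cells and 5.17 and 4.79 in scramble cells. The groups overlapped, and the spread between the scramble arrays exceeded the difference in means (log2 fold change 0.15, SE 0.14). Mlx, the gene of the common dimer partner (Entrez Gene 21428), had a pair of probe sets. The brighter read 4.78 and 5.04 in shBlnc1 cells and 4.66 and 4.68 in scramble cells, and the dimmer read 4.31 and 4.17 in shBlnc1 cells and 4.0 and 3.97 in scramble cells. Neither overlapped between groups, and the log2 fold changes of 0.24 (SE 0.12) and 0.26 (SE 0.10) were nearly equal.

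Txnip encodes the thioredoxin-interacting protein, which binds thioredoxin and promotes the internalization of glucose transporters (Entrez Gene 56338). Its brighter probe set read 9.49 and 9.51 in shBlnc1 cells, against 10.09 and 10.15 in scramble cells. Its other probe set read 5.97 and 5.89 in shBlnc1 cells, against 6.76 and 6.77 in scramble cells. On both, the groups lay apart by many times the replicate spread, and the log2 fold changes were -0.62 (SE 0.10) and -0.83 (SE 0.10). Both probe sets are annotated to the same transcript record, so they are no independent measures of the gene.

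Arrdc4, the alpha-arrestin closest to Txnip in known regulation and function (Entrez Gene 66412), had the largest difference of the 8 genes. The probe set that stands for the gene read 4.90 and 5.08 in shBlnc1 cells, against 2.66 and 2.96 in scramble cells, where the lower array was 0.12 above background. The log2 fold change was 2.18 (SE 0.13). A second probe set, annotated to another transcript record, read 3.40 and 3.18 in shBlnc1 cells and 2.88 and 3.14 in scramble cells. Its groups were 0.04 apart and its log2 fold change was 0.28 (SE 0.13), so the probe sets gave log2 fold changes that differed by 1.91, and their mean gave 1.23. The probe set that stands for a gene is the one with the highest mean over all 4 arrays, a rule that here took the one that was higher in shBlnc1 cells.

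Arrdc1, an alpha-arrestin known for the budding of vesicles from the cell surface (Entrez Gene 215705), had 3 probe sets. The brightest read 5.14 and 5.22 in shBlnc1 cells, against 5.68 and 5.65 in scramble cells, a log2 fold change of -0.49 (SE 0.10). The others gave -0.13 (SE 0.11) and -0.09 (SE 0.16), the last with overlapping groups, and the mean of all 3 gave -0.24. The size of the Arrdc1 difference therefore depended on the probe set.

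Arrdc3, linked in mice to body fat and energy use (Entrez Gene 105171), read 6.25 and 6.51 in shBlnc1 cells and 6.72 and 6.84 in scramble cells. Its groups did not overlap, with a log2 fold change of -0.39 (SE 0.12). Arrdc2, another alpha-arrestin gene (Entrez Gene 70807), read 3.85 and 3.98 in shBlnc1 cells and 3.80 and 3.98 in scramble cells. These values were interleaved and the log2 fold change was 0.03 (SE 0.11), which changed sign to -0.02 after quantile normalization.

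**Figure D2:**
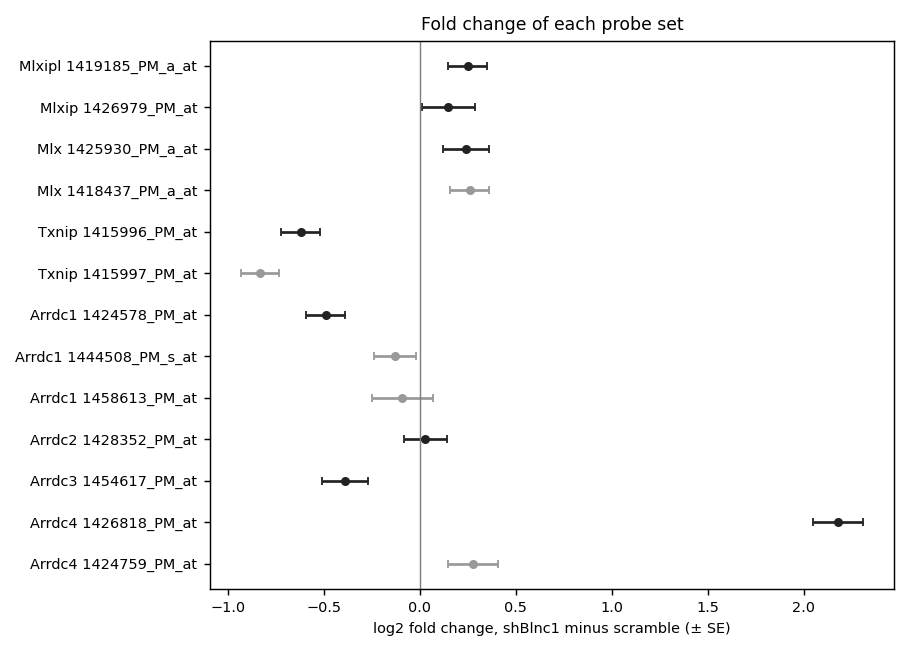
Log2 fold change of each of the 13 probe sets, shBlnc1 minus scramble (x axis, log2 units), with the standard error from the limma fit; rows are probe sets under their gene. Black marks the probe set that stands for the gene and grey the others; both Txnip probe sets lie below 0 at -0.62 and -0.83, while those of Arrdc4 lie apart at 2.18 and 0.28.

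In the limma fit across all genes, 18.5% of the 17097 genes passed an adjusted p of 0.05, 11.4% higher and 7.18% lower in shBlnc1 cells. Of the 8 genes, 3 were among those called, Arrdc4 higher and Txnip and Arrdc1 lower; since this contrast was known when the genes were proposed, nothing is read from that count. The log2 fold change of Arrdc4 lay between 1.23 and 2.33 under the 10 alternative settings. All of them used the same probe set or averaged it in, so they are no independent support. The calls of Txnip and Arrdc1 were lost when shBlnc1 replicate 1 or shBlnc1 replicate 2 was left out, with log2 fold changes of -0.61 and -0.63 for Txnip and -0.45 and -0.52 for Arrdc1. Averaging the probe sets of a gene also ended the call of Arrdc1. Arrdc3 was called after quantile normalization (log2 fold change -0.53), in eBayes with a trend and with the dimmest genes left out, and Mlxipl in eBayes with a trend. Over all genes, the balance of directions followed the scaling, with 1941 higher and 1228 lower genes as deposited, 1511 and 1564 after quantile normalization, and 2383 and 844 after median centring of the arrays.

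**Figure D3:**
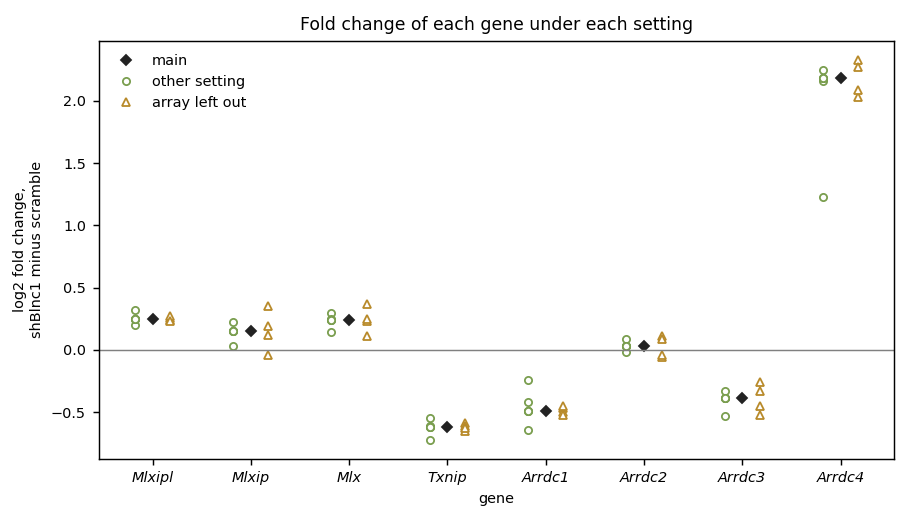
Log2 fold change, shBlnc1 minus scramble (y axis, log2 units), of each of the 8 genes (x axis) in the fit as reported (diamonds), under 6 other settings (circles) and with 1 array left out at a time (triangles). Arrdc4 stays above 1 and Txnip below 0 in every setting, and the lowest Arrdc4 value, 1.23, is that of the mean of its probe sets. No setting used the second Arrdc4 probe set alone, whose log2 fold change was 0.28.

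The genes nearest to Arrdc4 and Txnip over the 4 arrays were found by the root mean square difference of log2 values centred on each gene's own mean, among 12415 genes above background. For Arrdc4 these were Gpat3 (difference 0.050), Fbn2 (0.070) and Slit2 (0.084). Gpat3 read 6.45 and 6.51 in shBlnc1 cells and 4.21 and 4.47 in scramble cells. For Txnip they were Cmc1 (0.011), Echdc3 (0.014) and Mrps23 (0.018), and Cmc1 read 8.14 and 8.15 in shBlnc1 cells and 8.74 and 8.77 in scramble cells. With 4 arrays in 2 groups, likeness of this kind follows mainly from a like fold change.

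Known target genes of ChREBP, other than the arrestin genes, were mostly higher in shBlnc1 cells where they were called. Of 22 measured, 10 rose, 1 fell (Mttp) and 11 were not called, which is 50.0% called beside 18.5% of all genes. Among those not called, 2 (Slc2a2 and G6pc) had a mean at or below background. Mttp was dim, at 3.41 and 3.32 in shBlnc1 cells and 3.72 and 4.05 in scramble cells. Their median log2 fold change was 0.34, beside -0.04 over all genes. This list had been seen in part in earlier results of these data and is not independent evidence. The other lists below were also chosen with earlier results known. The p-values of list genes are therefore no independent evidence either.

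Acly, Me1, Klf10 and Fasn had the largest changes of this list. Acly, which makes cytosolic acetyl-CoA, read 9.87 and 9.95 in shBlnc1 cells and 8.24 and 8.16 in scramble cells, 3.27-fold higher (limma adjusted p = 0.000338). Me1, which encodes an NADPH-forming malic enzyme, read 10.54 and 10.51 in shBlnc1 cells and 9.0 and 8.82 in scramble cells, 3.07-fold higher (limma adjusted p = 0.000427). The groups lay far apart for both genes, and second probe sets gave log2 fold changes of 2.02 for Acly and 1.94 for Me1.

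Klf10, a zinc-finger repressor gene induced by glucose in liver, read 6.40 and 6.32 in shBlnc1 cells and 4.84 and 4.87 in scramble cells, 2.84-fold higher (limma adjusted p = 0.000421). Fasn, the fatty acid synthase gene, read 11.09 on both shBlnc1 arrays and 9.94 and 9.85 in scramble cells, 2.30-fold higher (limma adjusted p = 0.000901). The groups did not overlap for these genes, and the log2 fold change of Mlxipl itself was 0.25. Members not called included Pklr, the liver pyruvate kinase gene whose promoter window held the paired element, at 2.82 and 2.78 in shBlnc1 cells and 3.15 on both scramble arrays (limma adjusted p = 0.0519). The count of higher members lay between 7 and 9 with 1 array left out, and Mttp was not called without shBlnc1 replicate 1, without shBlnc1 replicate 2 or after median centring. The arrays with the higher values also had the higher Actb 3' to 5' ratio, and the part of RNA quality was not tested.

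**Figure D4:**
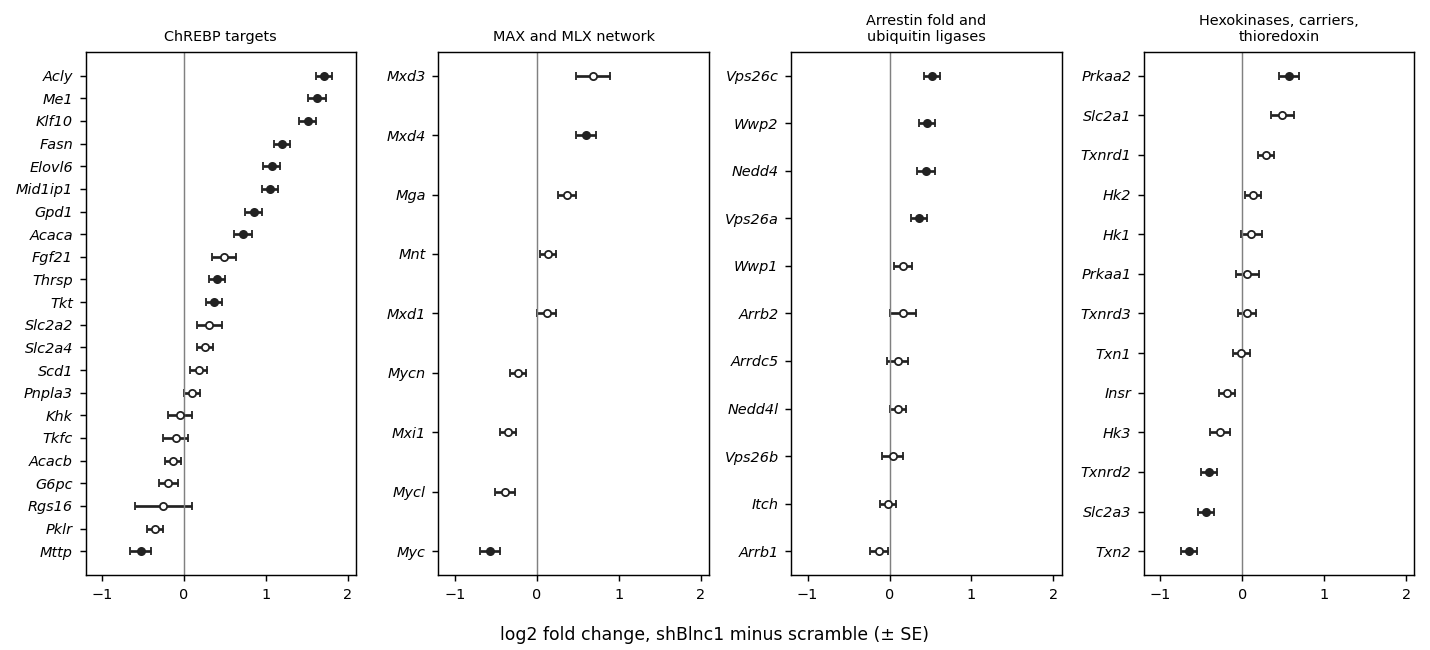
Log2 fold change, shBlnc1 minus scramble (x axis, log2 units, with the limma standard error), of the measured genes of 4 lists around the glucose-sensing factors (one panel each, one row per gene). Filled points passed a limma adjusted p of 0.05; the ChREBP target panel has 10 filled points above 0 and 1 below, and the other panels have between 2 and 4 filled points.

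MLX also dimerizes with some of the MXD repressors and with MNT. The MXD and MNT repressors compete with MYC for E-boxes and for the partner MAX. Of 9 measured genes of this network, 1 rose and 1 fell, 22.2% called beside 18.5% of all genes, with a median log2 fold change of 0.12. This list was chosen with earlier results of these data known, so nothing is read from that share. Mxd4, an MLX-binding repressor gene, read 7.93 on both shBlnc1 arrays and 7.48 and 7.19 in scramble cells, 1.51-fold higher (limma adjusted p = 0.0197). Myc, the proto-oncogene of the network, read 5.90 and 6.14 in shBlnc1 cells and 6.54 and 6.63 in scramble cells, 1.48-fold lower (limma adjusted p = 0.0194). Neither pair of groups overlapped. Myc was not called without shBlnc1 replicate 1, and Mxd4 was not called without either shBlnc1 replicate. After quantile normalization 1 was higher and 2 lower, and after median centring 2 were higher and 1 lower.

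Of 11 measured genes of arrestin-fold proteins and of the NEDD4 family ligases that alpha-arrestins recruit, 4 rose and 0 fell (0 lower also at an unadjusted p under 0.05), which is 36.4% called beside 18.5% of all genes. Their median log2 fold change was 0.16. Of the 11, 1 (Arrdc5) was below background on every array. The list was chosen with earlier results of these data known, so nothing is read from its share. Vps26c and Vps26a, which encode arrestin-fold subunits of cargo-sorting complexes, were 1.44-fold and 1.29-fold higher. Vps26c read 6.70 and 6.69 in shBlnc1 cells and 6.17 and 6.18 in scramble cells (limma adjusted p = 0.0134).

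The ligase gene Nedd4 read 10.10 and 9.95 in shBlnc1 cells and 9.51 and 9.64 in scramble cells, 1.36-fold higher (limma adjusted p = 0.0333). A second Nedd4 probe set had group means of 9.47 in shBlnc1 cells and 6.87 in scramble cells, a log2 fold change of 2.60 against 0.45 on the brighter one. Its relative Wwp2 was 1.38-fold higher (limma adjusted p = 0.0231) on the brightest of 6 probe sets, while another above background on every array gave a log2 fold change of -0.01. The mean of its 6 probe sets gave 0.02 and no call (limma adjusted p = 0.871), and Vps26a was not called after quantile normalization (limma adjusted p = 0.0767) or with the replicate number as a block (limma adjusted p = 0.0589). Without shBlnc1 replicate 1 or shBlnc1 replicate 2, 0 genes of this list were called, with 4 and 3 higher at an unadjusted p under 0.05. Without scramble replicate 1 or scramble replicate 2, 2 were called.

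Of 13 measured genes of hexokinases, glucose carriers, the thioredoxin system, AMP-activated kinase and the insulin receptor, 1 rose and 3 fell. That is 30.8% called beside 18.5% of all genes, with a median log2 fold change of 0.06. Nothing is read from this share, since the list was chosen with earlier results of these data known. Txn2, the mitochondrial thioredoxin gene, read 7.40 and 7.35 in shBlnc1 cells and 8.02 on both scramble arrays, 1.57-fold lower (limma adjusted p = 0.0062; 0.0566 without shBlnc1 replicate 2). Its reductase gene Txnrd2 was 1.33-fold lower (limma adjusted p = 0.0324), a call lost after median centring (limma adjusted p = 0.0559) and with any 1 of the 4 arrays left out (limma adjusted p of 0.0556 to 0.187).

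Txn1, the cytosolic thioredoxin gene whose product TXNIP binds, read 10.28 and 10.30 in shBlnc1 cells and 10.33 and 10.26 in scramble cells, with overlapping groups (limma adjusted p = 0.965). Slc2a3, a glucose transporter gene, was 1.36-fold lower (limma adjusted p = 0.0257), and Prkaa2, a catalytic subunit gene of the kinase that phosphorylates TXNIP, was 1.49-fold higher (limma adjusted p = 0.022). Slc2a1, the basal transporter gene whose product TXNIP removes from the surface, read 5.82 and 6.14 in shBlnc1 cells and 5.59 and 5.40 in scramble cells and was not called (limma adjusted p = 0.0541). After quantile normalization 0 were higher (1 at an unadjusted p under 0.05) and 3 lower, and after median centring 2 were higher and 2 lower. Averaged over all their probe sets, Slc2a3 and Prkaa2 were not called (limma adjusted p = 0.237 and 0.0562). Both genes were also not called without scramble replicate 1 or without either shBlnc1 replicate. Log2 fold changes there were -0.46 to -0.39 for Slc2a3 and 0.45 to 0.64 for Prkaa2. The lower count was 1 without scramble replicate 1, 2 without scramble replicate 2, 1 without shBlnc1 replicate 1 and 0 without shBlnc1 replicate 2 (3 at an unadjusted p under 0.05).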

How the data were processed

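RNA from 4 samples was labelled from 250 ng of total RNA with a 3' kit, per the labels' protocols, and hybridized to Affymetrix mouse PM strip arrays. The authors deposited log2 expression values, 1 per probe set and array (1.05 to 12.36). Per the submitters' processing notes, the tools named include affy, RMA and limma, with no versions; their roles are not given in the sources used here. The log2 scale was read from the values. No scanner files, scan times or slides were used here, so no batch could be examined.

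From the 45141 probe sets, 104 controls were left out. Of the other 45037, 28898 had exactly 1 symbol in the platform annotation, 551 several and 15588 none. All 8 members matched RefSeq by Entrez ID. Where a gene had several probe sets, the one of highest mean over all arrays stands for it.

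A linear model with group as its single term was fitted to all 45037 probe sets with lmFit and eBayes of limma 3.58.1 (R 4.3.3), after a check on simulated data. Its two-sided p-values were adjusted by Benjamini-Hochberg over 17097 genes, with a threshold of 0.05. The number of arrays limits the precision: the fit had 2 residual degrees of freedom and a median standard error of 0.11. The members, the lists, the tests, the settings and the naming rule were all chosen with earlier results of these data known. That rule takes all members, the 4 called genes of each list with the largest change, the 3 genes nearest in pattern to the 2 members with the largest change, and a few cell markers; other genes named were chosen after their values were seen. A few listed genes were not analysed here. Alternatives were quantile normalization, median centring, eBayes with a trend, dropping the dimmest 40 percent of genes, the mean of all probe sets, a replicate block and leaving out each array. Figures were drawn with matplotlib 3.10.9.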

Additional observations from a re-analysis of the deposited data

How the results depend on the processing

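Of the 8 member genes, Arrdc4, Txnip, Arrdc1, Arrdc3, Mlxipl and Mlx kept the sign of their log2 fold change under all 10 alternatives. Mlxip lay between -0.04 (without scramble replicate 2) and 0.35, and Arrdc2 between -0.06 and 0.11, neither called in any setting. Called members numbered 2 higher in eBayes with a trend in place of 1, and 1 lower with the mean of all probe sets in place of 2. Lower ones numbered 3 after quantile normalization, with the dimmest genes left out and in eBayes with a trend. With 1 array left out, log2 fold changes lay between -0.65 and -0.59 for Txnip and between -0.52 and -0.45 for Arrdc1. The calls of both were lost without either shBlnc1 array.

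The fits with 1 array left out all held the same number of arrays. Over all genes, higher and lower calls were both fewer when an shBlnc1 array was left out than when a scramble array was. Each such fit had 1 residual degree of freedom, so its replicate spread came only from the group that kept both arrays. The correlation between replicate arrays over probe sets was 0.996 for shBlnc1 cells and 0.994 for scramble cells. The reason for the fewer calls was not tested. With 1 array left out, higher calls ranged from 795 to 1681 and lower calls from 255 to 1168. ChREBP targets were 7 to 9 higher and 0 to 1 lower, MAX network genes 0 to 2 higher and 0 to 1 lower, arrestin-fold and ligase genes 0 to 2 higher and 0 lower, and hexokinase, carrier and thioredoxin genes 0 to 1 higher and 0 to 2 lower. In place of 1, lower ChREBP targets were 0 after median centring (2 at an unadjusted p under 0.05). In place of 1, higher MAX network genes were 2 after median centring, 2 with the dimmest genes left out, 3 in eBayes with a trend and 3 with the mean of all probe sets. In place of 1, lower ones were 2 after quantile normalization, 3 with the dimmest genes left out and 3 in eBayes with a trend. Higher hexokinase, carrier and thioredoxin genes were 0 after quantile normalization, 2 after median centring, 3 with the dimmest genes left out and 3 in eBayes with a trend, in place of 1. The cause was not tested.

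The labels give both groups replicate numbers 1 and 2. Deviations of same-numbered arrays from their group means had r = 0.0355 over probe sets. With 2 arrays per group this check yields a single value, so it cannot decide whether the numbers pair the samples. With the replicate block, 1953 genes were higher and 1226 lower over all genes, and 2 higher and 2 lower among the MAX network genes. Higher ChREBP targets were then 9 in place of 10, and higher arrestin-fold and ligase genes 3 in place of 4, without Vps26a; the member calls did not change.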
